A study of Rattus norvegicus with 9 samples.

Results

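Transcripts of collagen genes were measured by RNA-seq in the dorsal root ganglia (DRG) of male rats of the Sprague-Dawley strain. A ganglion of this kind holds the cell bodies of sensory neurons, with their glia, vessels and connective tissue. The genes were all rows of the deposited count table whose symbol is Col, a number, a and a number, with a level of at least 0.5 CPM (counts scaled to library size) in at least 3 libraries. The rule took 40 genes of 30446 in the table. The 9 libraries fall into 3 with a spinal cord injury (SCI), 3 with a sham operation and 3 naive ones, all labelled 30 days and taken from the lowest thoracic and the lumbar ganglia of both sides. The submitters call them biological replicates; the labels give neither the rats' age, the method of injury, nor whether a library holds 1 animal or several. Just inside the rule lay Col17a1, at 0.5 CPM or more in 4 libraries, and just outside lay Col6a4, at that level in 2 libraries (0.693 CPM in sham 3 and 0.595 CPM in SCI 2). Col15a1 and a further row named Col23a1 had 0 counts in all libraries. Col4a3, Col6a3 and Col21a1 had no row under those symbols and could not be analysed.

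Collagens are the structural proteins of the extracellular matrix, built as helical trimers of chains with a glycine at each turn. Fibrillar collagens form the banded fibres of the epineurium and endoneurium, collagen IV forms the network of basement membranes around Schwann cells, satellite glia and vessels, and collagen VI forms beaded filaments between them. FACIT collagens, which have interrupted helices, sit on the surface of fibrils, and other members are short-chain, anchoring or membrane-spanning. In nerve, fibroblasts make most fibrillar collagen and Schwann cells need a collagen-containing basement membrane to myelinate.

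Library totals ran from 16724878 to 32060538 counts, and the collagen genes near 1 CPM rested on few counts. All 40 genes passed the low-count filter, and 16627 genes were tested. The naive libraries differed from both other groups across the table: edgeR called 24.6% of all genes lower and 23.9% higher in SCI than in naive, and 25.9% lower and 24.7% higher in sham than in naive. No label gives a batch, so surgery and a batch that holds the naive libraries alone cannot be told apart. Of 46 tested genes known for very long coding sequences, a list chosen after earlier results were known, 46 were called lower in SCI and 45 lower in sham than in naive, with median log2 changes of -1.09 in SCI and -1.16 in sham. Many collagen chains are long as well; their measured length was not analysed here, and the part of length in the results below was not tested. Bulk RNA cannot tell fewer cells of a type from less RNA per cell.

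Collagen transcripts together made up less of the RNA in operated rats. Summed over the 40 genes they stood at 4038, 3674 and 3452 CPM in SCI libraries 1 to 3, at 2992, 3442 and 4440 CPM in sham libraries 1 to 3, and at 5310, 4895 and 5331 CPM in naive libraries 1 to 3. All SCI and all sham libraries lay below all naive ones, while SCI lay within the range of sham. The mean was 3722 ± 296 CPM in SCI, 3625 ± 741 CPM in sham and 5179 ± 246 CPM in naive (SD, n = 3 each). Col1a1 and Col3a1 carried a large part of this sum, 35.1% to 38.7% of collagen counts in SCI, 36.9% to 42.1% in sham and 48.5% to 51.9% in naive. Col1a1 had a mean of 668 CPM in SCI, 702 CPM in sham and 1319 CPM in naive. The means of Col3a1 were 712 CPM in SCI, 747 CPM in sham and 1282 CPM in naive. Most of the fall in the sum thus lay in these 2 genes, and the sum without them was not analysed.

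**Figure D1:**
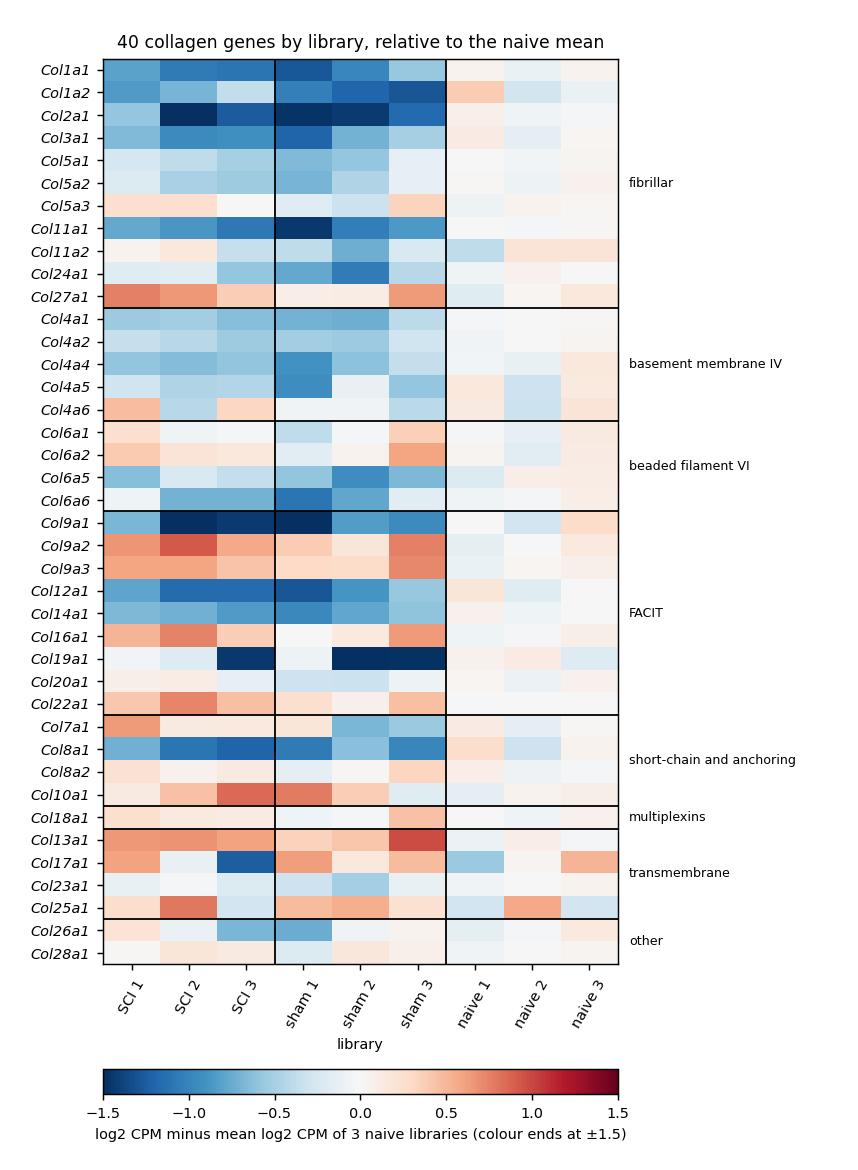
Log2 CPM of the 40 collagen genes in each library, minus the mean log2 CPM of the 3 naive libraries of that gene, with genes in rows grouped by role and libraries in columns. Blue is below and red above the naive mean; Col1a1, Col3a1, Col12a1 and Col14a1 are blue in all SCI and sham libraries, and Col9a2, Col9a3 and Col13a1 are red in all of them.

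The comparison of SCI with sham asks what cord injury adds to surgery. No collagen gene was called higher or lower by edgeR's quasi-likelihood test, which called 0% of all 16627 genes at an adjusted p under 0.05. An unadjusted p under 0.05 was reached by 4 collagen genes, and by 526 genes in all (3.16%). DESeq2 gave 3 collagen genes and 401 genes at that unadjusted level and called 0 collagen genes and 8 genes in all after adjustment. Limma-voom gave 4 and 558, and called 0. The libraries of SCI and sham did not overlap for 1 collagen gene, Col1a2, which was higher in SCI, where 3.3% of all genes lay higher and 3.11% lower without overlap. The Col1a2 row held 16 to 78 counts per library, and its values are uncertain.

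The 3 collagen genes with the smallest p between SCI and sham were Col24a1, Col6a5 and Col7a1, none of which passed. Col24a1, a minor fibrillar collagen, had 21.5, 21.7 and 16.3 CPM in SCI against 14.3, 11.8 and 18.4 CPM in sham, and 23.3, 25.5 and 24.5 CPM in naive. The lowest SCI library lay below the highest sham library (log2 change 0.42, SE 0.14, edgeR adjusted p = 0.9999). Col6a5, an alternative chain of collagen VI, had 26.6, 35.5 and 32.4 CPM in SCI against 27.4, 21.7 and 25.9 CPM in sham. The log2 change was 0.32 (SE 0.12), with an edgeR adjusted p of 0.9999. Col7a1, the anchoring fibril collagen, had 2.38, 1.68 and 1.68 CPM in SCI against 1.73, 0.952 and 1.04 CPM in sham, with a log2 change of 0.60 (SE 0.25), an edgeR adjusted p of 0.9999, and values of 0.39 without SCI 1 and 0.96 without sham 1. Of the 5 most abundant genes, Col1a1 had a log2 change of -0.07 (SE 0.14), Col3a1 of -0.07 (SE 0.15), Col5a3 of 0.20 (SE 0.14), Col4a1 of 0.04 (SE 0.09) and Col6a2 of 0.06 (SE 0.15), none called.

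Of the 40 collagen genes 33 had a positive log2 change between SCI and sham, with a median of 0.10, against 8259 of 16627 genes and a median of -0.00 over all genes tested. That count rested on single libraries: 18 of the 40 were positive without sham 1, with a median of -0.02, and 22 were positive without SCI 1. Without sham 3, 36 were positive with a median of 0.25, and 18 reached an unadjusted p under 0.05, with 0 collagen genes called. Over the whole table, leaving out sham 3 brought 2329 genes (13.8%) to an unadjusted p under 0.05, against 526 (3.16%) with it, and 22 were called. Sham 3 was the highest of the 3 sham libraries for 28 of the 40 genes, and sham 1 the lowest for 22. The median coefficient of variation of the collagen genes was 12.7% in SCI, 20.1% in sham and 7.56% in naive, against 6.42%, 11.6% and 5.63% over all genes tested. Collagen genes thus varied more between libraries of a group than the table as a whole.

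**Figure D2:**
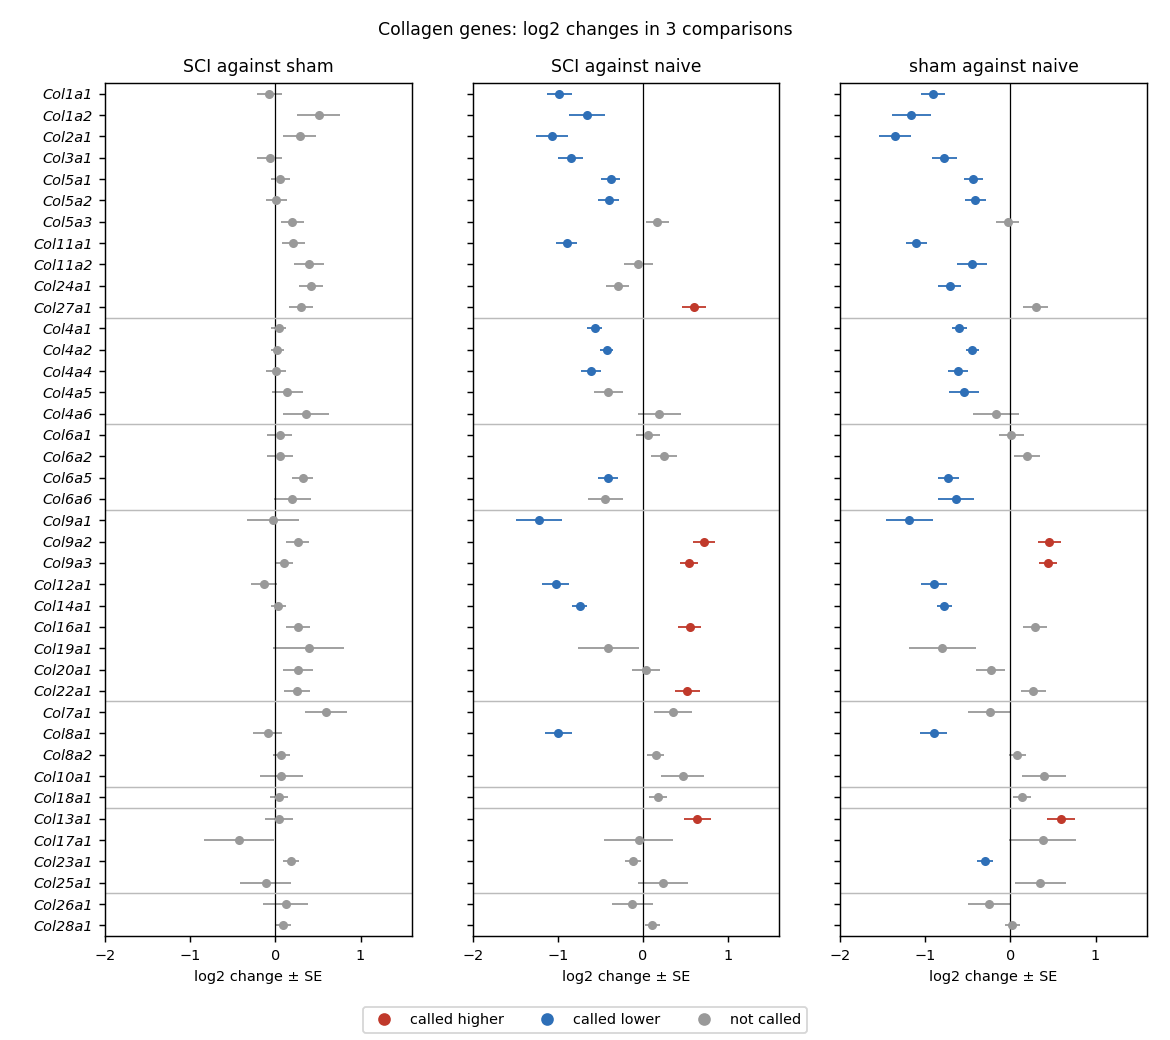
Log2 change (x axis, with SE from the edgeR fit) of each collagen gene (rows, grouped by role) in SCI against sham, SCI against naive and sham against naive. Blue points were called lower, red points higher and grey points not called at an adjusted p under 0.05; no point is coloured in the SCI against sham panel.

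The comparisons with naive ask how ganglia after injury and after surgery alone differ from those of unoperated rats; both use the same naive libraries and are not independent. Either way, 21 of the 40 collagen genes were called in SCI (48.5% of all genes were) and 23 in sham (50.6%), and an unadjusted p under 0.05 was reached by 24 in SCI (54.8% of all genes) and 23 in sham (56.3%). In SCI, 15 of the 40 collagen genes were called lower (37.5%, against 24.6% of all genes) and 6 higher (15%, against 23.9%). In sham, 20 were called lower (50%, against 25.9% of all genes) and 3 higher (7.5%, against 24.7%). The median log2 change was -0.12 in SCI and -0.36 in sham, against 0.01 and 0.00 over all genes tested in the same comparisons. Without overlap with naive, 16 genes lay lower in SCI (31.9% of all genes did) and 10 higher (32.2%), and 18 lay lower in sham (29.2%) and 4 higher (27.5%). Of genes not called, some were called when 1 library was left out. In SCI these were Col4a5 without sham 1, sham 2 or naive 2 (log2 change -0.54 without naive 2), Col6a6 without SCI 1 (-0.71), sham 1 or sham 3, and Col18a1, Col24a1 and Col6a2 without sham 3. In sham they were Col10a1 without sham 3 (0.62), Col19a1 without sham 1 (-1.62), Col5a3 without sham 3 (-0.25) and Col6a2, Col16a1 and Col27a1 without sham 1. The 6 called higher in SCI became 10 when only the SCI and naive libraries were fitted, and the 3 called higher in sham became 6 without sham 1.

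Fibrillar collagens were the role group with the most genes called lower. Of 11 members, 7 were called lower (63.6%, against 24.6% of all genes) and 1 higher (9.09%, against 23.9%) in SCI. In sham, 9 were called lower (81.8%, against 25.9% of all genes) and 0 higher (against 24.7%). The median log2 changes were -0.40 in SCI and -0.71 in sham. Col1a1, the major chain of type I collagen in skin, tendon and nerve sheath, had 757, 632 and 616 CPM in SCI and 547, 668 and 891 CPM in sham, against 1367, 1226 and 1365 CPM in naive. Every SCI and sham library lay below every naive one, at about the same level in SCI and sham. It stood at 668 ± 76.9 CPM in SCI, 702 ± 175 CPM in sham and 1319 ± 80.9 CPM in naive (SD, n = 3 each). Its log2 change was -0.98 (SE 0.14, edgeR adjusted p = 0.000116) in SCI and -0.91 (SE 0.14, edgeR adjusted p = 0.000172) in sham.

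Col3a1, the type III chain that co-assembles with type I in soft tissue, had 804, 659 and 673 CPM in SCI and 556, 779 and 905 CPM in sham, against 1391, 1150 and 1304 CPM in naive. It fell as Col1a1 did, without overlap, with log2 changes of -0.85 (SE 0.15, edgeR adjusted p = 0.000400) in SCI and -0.78 (SE 0.15, edgeR adjusted p = 0.000657) in sham. Col5a1 and Col5a2, chains of the type V collagen that sets fibril diameter, fell less. Col5a1 had 114, 106 and 97.6 CPM in SCI and 87.3, 92.004 and 126 CPM in sham, against 138, 134 and 142 CPM in naive, with log2 changes of -0.38 in SCI and -0.44 in sham. Col5a2, the neighbour of Col3a1 on chromosome 9, had 141, 116 and 112 CPM in SCI and 99.7, 118 and 148 CPM in sham, against 164, 154 and 169 CPM in naive, with log2 changes of -0.40 in SCI and -0.41 in sham. The type V calls were close to the threshold: in SCI the Col5a1 call was lost without SCI 3 (edgeR adjusted p = 0.0597) and the Col5a2 call without SCI 2 (edgeR adjusted p = 0.0639) or SCI 3 (edgeR adjusted p = 0.0698), and in sham the Col5a2 call was lost without sham 2 (edgeR adjusted p = 0.0501).

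Col5a3, the third type V chain, which rat Schwann cells are known to make, did not move with its partners. It had 486, 490.2 and 408 CPM in SCI and 361, 328 and 515 CPM in sham, against 388, 427 and 418 CPM in naive, and the groups overlapped (log2 change 0.17, SE 0.14, in SCI and -0.03, SE 0.14, in sham, not called). Without sham 3, the highest sham library, Col5a3 was called lower in sham (log2 change -0.25, edgeR adjusted p = 0.0230).

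Collagens best known from cartilage were measured in the ganglia too, and several fell. Col2a1, the main cartilage fibril collagen, had 40.8, 19.3 and 25.7 CPM in SCI and 21.9, 22.5 and 27.1 CPM in sham, against 64.4, 58.4 and 60.3 CPM in naive. SCI 1 lay well above the other 2 SCI libraries yet below all naive ones. The log2 change was -1.07 (SE 0.19, edgeR adjusted p = 0.000420) in SCI and -1.36 (SE 0.19, edgeR adjusted p = 7.35e-05) in sham. Col11a1, which nucleates fibrils, had 12.7, 11.8 and 10.3 CPM in SCI and 7.93, 10.5 and 11.95 CPM in sham, against 21.7, 21.2 and 22.0 CPM in naive, with log2 changes of -0.90 in SCI (edgeR adjusted p = 7.21e-05) and -1.11 in sham (edgeR adjusted p = 1.40e-05). Its partner Col11a2 stood at 12.9 ± 2.27 CPM in SCI, 9.73 ± 1.66 CPM in sham and 13.3 ± 2.81 CPM in naive (SD, n = 3 each), and its ranges overlapped. Col11a2 was called lower in sham (log2 change -0.45, edgeR adjusted p = 0.0439), a call kept in 8 of 17 alternatives. In edgeR it was lost without SCI 1, sham 1, sham 2, naive 2 or naive 3 (adjusted p = 0.0593, 0.0516, 0.169, 0.152 and 0.145), with upper-quartile scaling (adjusted p = 0.0504), with sham and naive fitted alone (adjusted p = 0.0526) and with the replicate block (adjusted p = 0.0628), and it was lost in limma-voom (adjusted p = 0.0575). It was not called in SCI (log2 change -0.05).

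Of the remaining fibrillar members, Col24a1 was called lower in sham (log2 change -0.71, SE 0.14, edgeR adjusted p = 0.000802) and not in SCI (log2 change of -0.30 with SE 0.13, edgeR adjusted p = 0.0804). Col27a1, a collagen of cartilage and developing tissue, was the fibrillar member called higher, with 28.8, 26.8 and 22.0 CPM in SCI and 18.3, 18.4 and 26.5 CPM in sham, against 15.02, 17.3 and 19.0 CPM in naive. Its log2 change was 0.60 in SCI (SE 0.14, edgeR adjusted p = 0.00375) and 0.30 in sham (SE 0.15, not called). The sham value of Col27a1 was 0.11 without sham 3, and without sham 1 it was 0.39 and called (edgeR adjusted p = 0.0401). Col1a2, the partner chain of Col1a1, held 16 to 78 counts per library where Col1a1 held 11231 to 42494. Which reads of that transcript the row holds was not analysed here, and its values are uncertain. On that row Col1a2 had 1.21, 1.33 and 1.68 CPM in SCI and 1.07, 0.952 and 0.893 CPM in sham, against 2.82, 1.79 and 2.02 CPM in naive. Col1a2 was called lower in SCI (log2 change -0.66, edgeR adjusted p = 0.0208) and in sham (log2 change -1.17, edgeR adjusted p = 0.00102), and the SCI call was lost without SCI 1, SCI 2 or naive 1 (edgeR adjusted p = 0.0983, 0.0615 and 0.104).

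**Figure D3:**
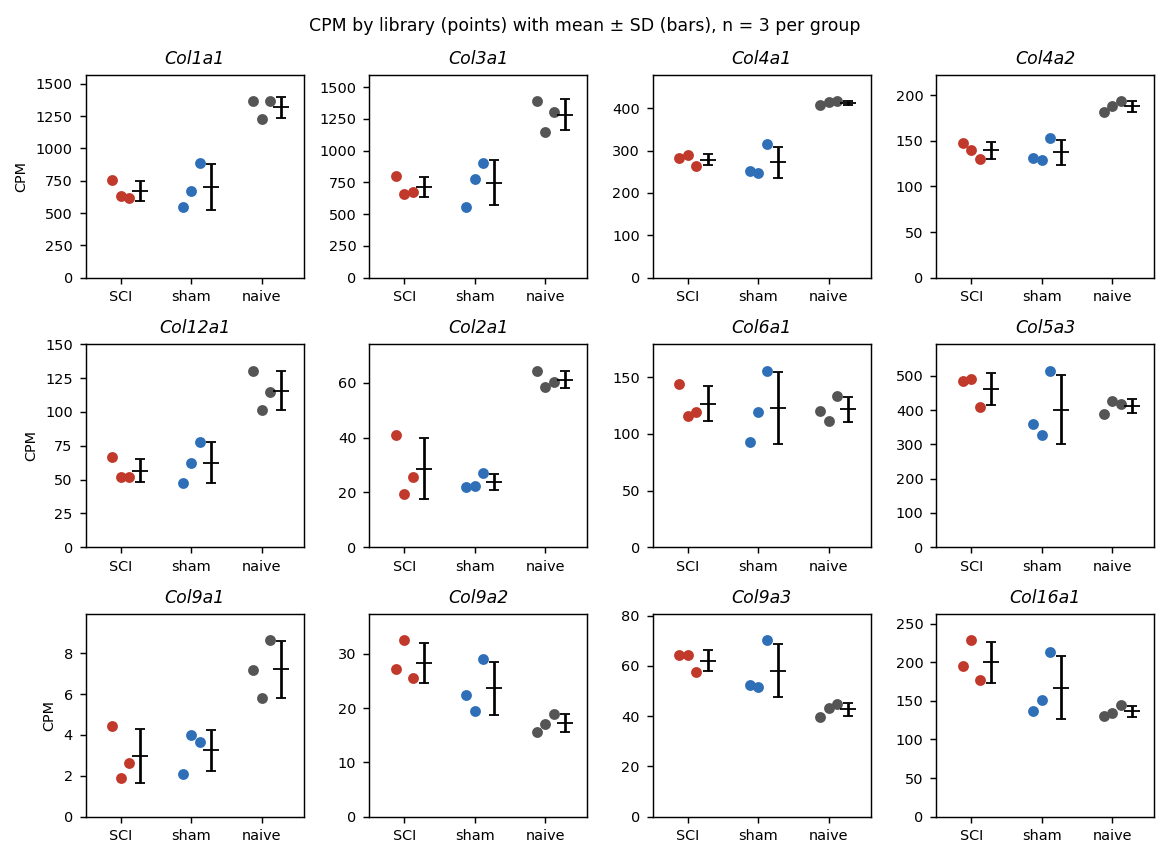
CPM of 12 collagen genes in each library (points) with the mean ± SD of the group (bars, n = 3) for SCI, sham and naive, on axes that start at 0. Col1a1, Col3a1, Col4a1, Col4a2, Col12a1, Col2a1 and Col9a1 are lower in all SCI and sham libraries than in all naive ones, Col9a2 and Col9a3 are higher in all of them, Col16a1 is higher in all SCI libraries than in all naive ones, and Col6a1 and Col5a3 overlap.

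Collagen IV, the network former of basement membranes, fell for most chains measured. Of 5 members, 3 were called lower in SCI (60%, against 24.6% of all genes) and 4 in sham (80%, against 25.9%), with 0 higher. The median log2 change was -0.43 in SCI and -0.54 in sham. Col4a1 and Col4a2 encode the chains found in nearly all basement membranes. Their genes lie head to head on chromosome 16 with starts 77 bases apart in RefSeq's GRCr8, and in human and mouse the region between them is known to serve both. The windows from 250 bases before to 50 after each start are printed because the 2 genes moved together. They share 176 bases, which hold 1 CCAAT box and 2 GGGCGG boxes. Capitals mark CCAAT and GGGCGG on either strand, and neither window holds a TATAAA.
Col4a1, chr16:84885347-84885646, plus strand: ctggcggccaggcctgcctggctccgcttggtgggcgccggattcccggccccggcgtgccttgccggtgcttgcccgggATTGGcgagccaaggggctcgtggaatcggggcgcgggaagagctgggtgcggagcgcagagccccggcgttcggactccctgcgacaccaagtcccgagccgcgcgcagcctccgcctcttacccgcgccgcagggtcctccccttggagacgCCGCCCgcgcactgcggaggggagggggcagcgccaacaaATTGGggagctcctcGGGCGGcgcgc
Col4a2, chr16:84885471-84885770, minus strand: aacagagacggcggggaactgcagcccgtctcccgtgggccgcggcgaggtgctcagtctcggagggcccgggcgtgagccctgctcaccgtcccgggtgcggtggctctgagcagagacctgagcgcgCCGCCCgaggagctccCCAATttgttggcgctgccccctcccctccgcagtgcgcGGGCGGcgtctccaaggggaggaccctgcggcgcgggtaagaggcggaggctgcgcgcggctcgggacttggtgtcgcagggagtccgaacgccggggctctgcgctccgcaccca

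Col4a1 had 283, 289 and 265 CPM in SCI and 252, 248 and 315 CPM in sham, against 408, 414 and 417 CPM in naive. Col4a2 had 148, 140.3 and 129.7 CPM in SCI and 131, 128 and 153 CPM in sham, against 181, 188 and 193 CPM in naive. For both genes the SCI and sham libraries overlapped each other and lay below all naive ones. Col4a1 had log2 changes of -0.57 (SE 0.09, edgeR adjusted p = 0.000168) in SCI and -0.60 (SE 0.09, edgeR adjusted p = 8.81e-05) in sham. Those of Col4a2 were -0.43 (SE 0.08, edgeR adjusted p = 0.000559) in SCI and -0.45 (SE 0.08, edgeR adjusted p = 0.000350) in sham. Col4a4, a chain of specialised basement membranes known from kidney, had 20.4, 19.6 and 20.4 CPM in SCI and 16.4, 20.0 and 24.0 CPM in sham, against 29.9, 28.4 and 34.1 CPM in naive, with log2 changes of -0.61 in SCI (edgeR adjusted p = 0.000730) and -0.62 in sham (edgeR adjusted p = 0.000655). Its head-to-head neighbour Col4a3 had no row under that symbol. Col4a5, on chromosome X, stood at 8.23 ± 0.477 CPM in SCI, 7.63 ± 2.20 CPM in sham and 10.95 ± 1.91 CPM in naive (SD, n = 3 each). It was called lower in sham (log2 change -0.54, edgeR adjusted p = 0.0219) with overlapping libraries, a call lost without sham 1 (log2 change -0.36, edgeR adjusted p = 0.0835), naive 1 (edgeR adjusted p = 0.0838) or naive 3 (edgeR adjusted p = 0.0763), and was not called in SCI (log2 change -0.41, edgeR adjusted p = 0.0712). Its neighbour Col4a6 stood between 0.742 and 1.36 CPM and was not called.

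Over the 31 collagen genes found in RefSeq's promoter table, 18 windows held a GGGCGG (58.1%, against 34.9% of 27457 windows of 300 bases), 10 a CCAAT (32.3%, against 37.7%) and 4 a TATAAA (12.9%, against 14.3%), each searched on both strands. The collagen windows were richer in G and C than all windows, with a median GC content of 59.7% against 52.3%, and the part of that in the GGGCGG count was not tested. Of the 10 genes with a window that were called lower in SCI than in naive, 5 held a CCAAT and 5 a GGGCGG. Of the 4 called higher 0 and 2 did, and of the 17 not called 5 and 11 did. In sham, 5 of the 15 called lower held a CCAAT and 10 a GGGCGG. Of the 2 called higher in sham 0 and 0 did, and of the 14 not called 5 and 8 did. The Col4a1 and Col4a2 windows, both of genes called lower, share 1 CCAAT and 2 GGGCGG and are not independent. A match describes the letters of the window and not a bound site. The other 9 genes were not matched, so the counts of windows leave them out. They were Col1a1, Col2a1, Col3a1, Col12a1 and Col14a1, all called lower in SCI and in sham, and Col6a2, Col9a3, Col22a1 and Col25a1.

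Collagen VI split by chain, and the gene of its alpha3 chain, Col6a3, had no row under that symbol. Col6a1 and Col6a2, neighbours on chromosome 20 that encode the core chains of its beaded filaments, were not called in any comparison with all libraries in the fit. Col6a1 had 144, 116 and 119.6 CPM in SCI and 93.1, 119 and 156 CPM in sham, against 120.4, 111 and 133 CPM in naive, with log2 changes of 0.06 in SCI and 0.01 in sham (SE 0.15 each). Col6a2 had 211, 184 and 179.9 CPM in SCI and 143, 167 and 243 CPM in sham, against 165, 144 and 176 CPM in naive, with log2 changes of 0.25 in SCI and 0.19 in sham (SE 0.15 each). The Col6a2 libraries of SCI all lay above those of naive, by less than the test required, and sham 3 was the highest library for both genes. Col6a5 and Col6a6, neighbours on chromosome 8 whose products resemble the alpha3 chain, were called lower in sham. Col6a5, with 35.8, 44.5 and 44.8 CPM in naive and the SCI and sham values given above, lay without overlap below naive in both groups. Its log2 changes were -0.41 in SCI (SE 0.12, edgeR adjusted p = 0.0110) and -0.73 in sham (SE 0.12, edgeR adjusted p = 0.000236), and its SCI call was lost without SCI 1 (edgeR adjusted p = 0.0625). Col6a6 stood at 11.7 ± 3.25 CPM in SCI, 10.5 ± 3.53 CPM in sham and 16.1 ± 0.941 CPM in naive (SD, n = 3 each) and was called in sham (log2 change -0.64, edgeR adjusted p = 0.0208) and not in SCI (log2 change -0.44, edgeR adjusted p = 0.0882). The sham call of Col6a6 was lost without sham 1, sham 2 or naive 3 (edgeR adjusted p = 0.0708, 0.0771 and 0.0606).

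FACIT collagens moved in both directions. Of 9 members, 3 were called lower (33.3%, against 24.6% of all genes) and 4 higher (44.4%, against 23.9%) in SCI. In sham, 3 were called lower (33.3%, against 25.9% of all genes) and 2 higher (22.2%, against 24.7%). Col14a1, a fibril-associated collagen of skin and tendon, had the smallest p of all collagen genes in both comparisons, with 73.3, 70.9 and 64.5 CPM in SCI and 59.5, 68.1 and 77.0 CPM in sham, against 122, 111 and 117 CPM in naive. Its log2 change was -0.75 (SE 0.09, edgeR adjusted p = 2.00e-05) in SCI and -0.78 (SE 0.09, edgeR adjusted p = 1.17e-05) in sham. Col12a1, which links fibrils to other matrix, had 66.4, 51.5 and 51.6 CPM in SCI and 47.1, 62.4 and 77.5 CPM in sham, against 131, 102 and 115 CPM in naive. It fell without overlap, with log2 changes of -1.03 (SE 0.15, edgeR adjusted p = 0.000136) in SCI and -0.89 (SE 0.15, edgeR adjusted p = 0.000335) in sham.

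Collagen IX, known from cartilage where its chains form a heterotrimer, had chains that moved in opposite directions. Col9a1 had 4.42, 1.88 and 2.64 CPM in SCI and 2.09, 3.99 and 3.67 CPM in sham, against 7.17, 5.82 and 8.64 CPM in naive. It fell, with log2 changes of -1.22 (SE 0.27, edgeR adjusted p = 0.00226) in SCI and -1.19 (SE 0.28, edgeR adjusted p = 0.00296) in sham. Col9a2 had 27.2, 32.5 and 25.5 CPM in SCI and 22.4, 19.5 and 29.1 CPM in sham, against 15.6, 17.1 and 19.0 CPM in naive. Col9a3 had 64.5, 64.5 and 57.5 CPM in SCI and 52.3, 51.6 and 70.3 CPM in sham, against 39.8, 43.4 and 45.0 CPM in naive. Both rose without overlap in SCI and in sham. Col9a2 had log2 changes of 0.72 (SE 0.13, edgeR adjusted p = 0.000676) in SCI and 0.46 (SE 0.14, edgeR adjusted p = 0.0125) in sham, the sham value being 0.30 without sham 3 and losing its call without naive 1 (edgeR adjusted p = 0.0510). Col9a3 had 0.54 (SE 0.11, edgeR adjusted p = 0.000992) in SCI and 0.44 (SE 0.11, edgeR adjusted p = 0.00379) in sham, the sham value being 0.29 without sham 3.

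Col16a1, a widely expressed FACIT collagen, had 195, 229 and 177 CPM in SCI and 136, 151 and 213 CPM in sham, against 130.4, 135 and 145 CPM in naive. Col16a1 rose in SCI, by 0.55 on the log2 scale (SE 0.14, edgeR adjusted p = 0.00505), and was not called in sham (0.29, SE 0.14, edgeR adjusted p = 0.0996). Its sham value was 0.08 without sham 3, and without sham 1 it was 0.41 and called (edgeR adjusted p = 0.0123). Col22a1, known from the muscle-tendon junction, had 3.86, 4.84 and 4.00 CPM in SCI and 3.45, 3.09 and 4.02 CPM in sham, against 2.93, 2.93 and 2.92 CPM in naive. Col22a1 rose in SCI, by 0.52 on the log2 scale (SE 0.14, edgeR adjusted p = 0.00909), and was not called in sham (0.27, SE 0.15, edgeR adjusted p = 0.152). A rise in SCI and none called in sham does not show that SCI and sham differ: between SCI and sham the log2 change of Col16a1 was 0.26 (SE 0.14) and that of Col22a1 was 0.25 (SE 0.15), and edgeR called neither. That of Col16a1 was 0.16 without SCI 2, 0.13 without sham 1 and 0.47 without sham 3, and that of Col22a1 was 0.15 without SCI 2. Col19a1 and Col20a1 stood below 2 CPM in all libraries and were not called.

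Of the short-chain and anchoring members, Col8a1 was the only one called. Col8a1, a short-chain collagen of vessel walls and the cornea, had 13.6, 10.5 and 9.78 CPM in SCI and 10.8, 14.5 and 11.4 CPM in sham, against 26.9, 18.1 and 23.2 CPM in naive. Its log2 change was -0.99 (SE 0.16, edgeR adjusted p = 0.000221) in SCI and -0.90 (SE 0.16, edgeR adjusted p = 0.000416) in sham. Its partner Col8a2 had 79.4, 70.8 and 74.4 CPM in SCI and 61.7, 68.5 and 84.4 CPM in sham, against 72.6, 64.01 and 66.2 CPM in naive, with overlapping groups and no call. Col10a1, of growth-plate cartilage, and Col7a1 stood between 0.952 and 2.38 CPM in all libraries and were not called against naive.

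Among membrane-spanning collagens, Col13a1, known from the neuromuscular junction, rose. It had 5.13, 5.19 and 4.96 CPM in SCI and 4.15, 4.34 and 6.40 CPM in sham, against 3.08, 3.49 and 3.21 CPM in naive. The log2 change was 0.64 (SE 0.16, edgeR adjusted p = 0.00536) in SCI and 0.60 (SE 0.17, edgeR adjusted p = 0.00847) in sham, the sham value being 0.38 without sham 3. Col23a1 had 20.8, 18.1 and 23.7 CPM in sham against 24.7, 25.8 and 26.6 CPM in naive. It was called lower in sham (log2 change -0.30, SE 0.09, edgeR adjusted p = 0.0162), and the call was lost without sham 2 (edgeR adjusted p = 0.0679) or naive 3 (edgeR adjusted p = 0.0525). In SCI Col23a1 had 23.7, 25.2 and 22.3 CPM and was not called (log2 change -0.12). Col17a1, of hemidesmosomes, and Col25a1, which developing motor axons need in mice, stood below 2 CPM and were not called. Col18a1, the basement membrane collagen that releases endostatin, stood at 94.9 ± 4.43 CPM in SCI, 92.5 ± 18.5 CPM in sham and 84.0 ± 3.71 CPM in naive (SD, n = 3 each). Col28a1, known in mice from peripheral nerve and ganglia, stood at 98.1 ± 5.93 CPM in SCI, 92.2 ± 12.01 CPM in sham and 90.7 ± 3.07 CPM in naive (SD, n = 3 each). Col18a1, Col28a1 and Col26a1, which stood at 1.14 to 2.19 CPM, were not called in any comparison with all libraries in the fit.

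Ratios of counts of partner chains within a library do not depend on library scaling. The ratio of Col9a1 to Col9a2 was 0.163, 0.0578 and 0.104 in SCI and 0.0936, 0.205 and 0.126 in sham, against 0.458, 0.341 and 0.456 in naive. That of Col8a1 to Col8a2 was 0.171, 0.149 and 0.131 in SCI and 0.175, 0.212 and 0.135 in sham, against 0.371, 0.283 and 0.351 in naive. In both cases every SCI and sham library lay below every naive one, with SCI and sham overlapping. Col4a1 to Col4a2 was 2.00 ± 0.0798 in SCI, 1.98 ± 0.0745 in sham and 2.20 ± 0.0494 in naive, and Col6a1 to Col6a2 was 0.659 ± 0.0264 in SCI, 0.668 ± 0.0402 in sham and 0.754 ± 0.0234 in naive (SD, n = 3 each). These ratios also lay below naive without overlap, by a smaller step. Col5a1 to Col5a2 was 0.866 ± 0.0515 in SCI, 0.835 ± 0.0507 in sham and 0.850 ± 0.0154 in naive, and its groups overlapped, as did those of Col1a1 to Col1a2. Of the ratios added after the data were seen, Col11a1 to Col11a2 was 0.910 ± 0.0990 in SCI, 1.06 ± 0.273 in sham and 1.68 ± 0.409 in naive (SD, n = 3 each), again without overlap with naive. Col9a3 to Col9a2 was 2.20 ± 0.200 in SCI, 2.47 ± 0.163 in sham and 2.49 ± 0.0986 in naive, and Col1a1 to Col3a1 was 0.939 ± 0.0213 in SCI, 0.942 ± 0.0729 in sham and 1.03 ± 0.0435 in naive, both with smaller steps and with all SCI libraries below all naive ones. Of 27 exact permutation tests over 9 ratios (two-sided), 12 gave 0.1, the smallest p that 3 against 3 allows, and the smallest Benjamini-Hochberg adjusted p was 0.225. None of these permutation tests can pass 0.05.

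**Figure D4:**
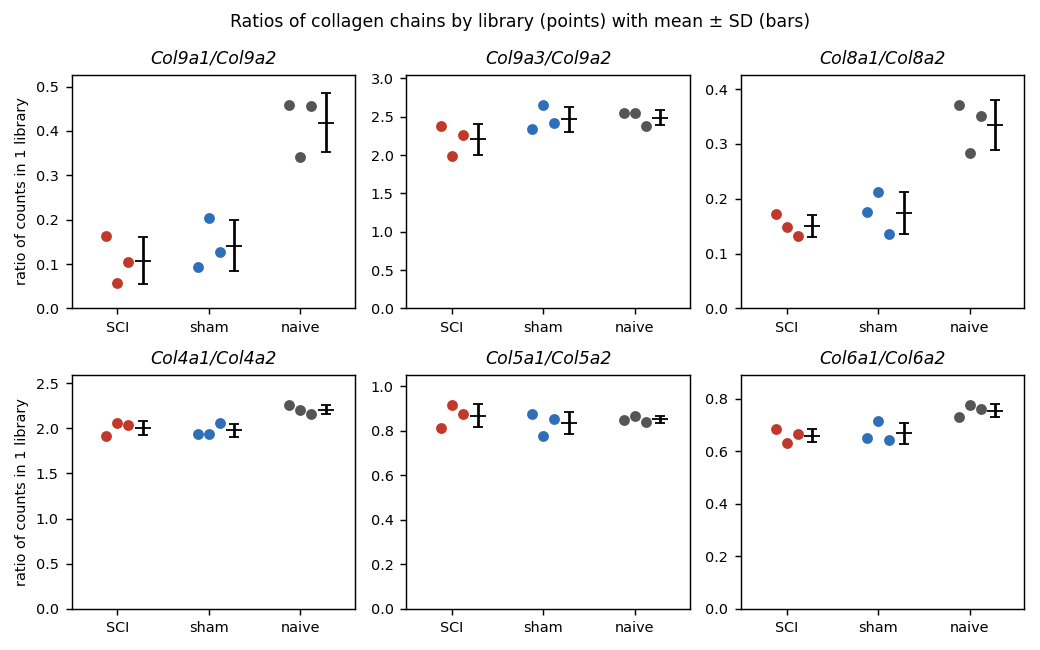
Ratio of the counts of 2 collagen chains in each library (points) with mean ± SD (bars, n = 3) for SCI, sham and naive, on axes that start at 0. Col9a1/Col9a2 and Col8a1/Col8a2 lie far below naive in all SCI and sham libraries, Col4a1/Col4a2 and Col6a1/Col6a2 slightly below, and Col5a1/Col5a2 overlaps; Col9a3/Col9a2 stays between 1.98 and 2.65.

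Genes that process and read collagen were set beside the shares of all genes, 24.6% lower and 23.9% higher in SCI and 25.9% lower and 24.7% higher in sham. Of 21 genes for chain modification and folding, 4 were called lower (19%) and 3 higher (14.3%) in SCI, and 5 lower (23.8%) and 3 higher (14.3%) in sham, all under those shares, with a median log2 change of -0.06 in SCI and -0.08 in sham. Mia3, which serves export of procollagen from the endoplasmic reticulum, had log2 changes of -0.41 in SCI (edgeR adjusted p = 0.000111) and -0.43 in sham. Plod2, a lysyl hydroxylase, had -0.52 in SCI (edgeR adjusted p = 0.000375) and -0.51 in sham, and Sec23a, a coat protein of the same export route, had -0.44 in SCI (edgeR adjusted p = 0.000489) and -0.39 in sham. All 3 were called in both comparisons. The genes called higher in both were P3h3, of the prolyl 3-hydroxylase family, with 0.57 in SCI and 0.48 in sham, the cyclophilin gene Ppib, with 0.27 in SCI and 0.33 in sham, and the prolyl 4-hydroxylase subunit gene P4ha3, with 0.29 in SCI and 0.38 in sham. Serpinh1, the collagen chaperone HSP47, stood at 378 CPM in SCI, 399 CPM in sham and 343 CPM in naive and was not called.

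Of 13 genes for procollagen cleavage and cross-linking, 4 were called lower (30.8%) and 1 higher (7.69%) in SCI, and 4 lower (30.8%) and 0 higher in sham, with a median log2 change of 0.05 in SCI and 0.04 in sham. Tll1, a procollagen proteinase, had log2 changes of -0.94 in SCI and -0.86 in sham, and Adamts3, another, had -0.68 in both. Lox, a cross-linking lysyl oxidase, had -0.90 in SCI and -0.76 in sham. Pxdn, the peroxidase that cross-links collagen IV, was called higher in SCI (log2 change 0.36, edgeR adjusted p = 0.00768), where Col4a1, Col4a2 and Col4a4 were called lower.

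Of 15 genes for collagen breakdown and its inhibitors, 2 were called lower and 2 higher in SCI (13.3% each), and 3 lower (20%) and 2 higher (13.3%) in sham, all under the shares of all genes, with a median log2 change of -0.14 in SCI and -0.11 in sham. Reck, a membrane inhibitor of matrix metalloproteinases, had log2 changes of -0.70 in SCI and -0.77 in sham. Timp4, a secreted inhibitor, went the other way, with 0.78 in SCI and 0.73 in sham, and Timp1 was called higher too, with 0.42 in SCI and 0.35 in sham. Fap, a fibroblast protease, had -0.58 in SCI and -0.63 in sham and was called lower in both. The membrane collagenase Mmp14 and the gelatinase Mmp2 were not called.

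Of 10 collagen receptors, 5 were called lower in SCI and 5 in sham (50% each) and 0 higher, with a median log2 change of -0.49 in SCI and -0.52 in sham. Adgrg6, a collagen IV receptor that Schwann cells need for myelination, stood at 71.3 CPM in SCI, 66.6 CPM in sham and 114 CPM in naive, with log2 changes of -0.68 in SCI and -0.78 in sham. Itgb1, the shared beta subunit of collagen integrins, had -0.56 in SCI and -0.60 in sham. Ddr2, a receptor kinase for fibrillar collagen, had -0.70 in SCI and -0.65 in sham.

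Of 17 collagen-binding matrix genes, 6 were called lower (35.3%) and 1 higher (5.88%) in SCI and in sham each, with a median log2 change of -0.22 in SCI and -0.24 in sham. Hspg2, the basement membrane proteoglycan perlecan, had log2 changes of -1.01 in SCI and -1.22 in sham, and Aspn, a small leucine-rich proteoglycan, had -1.66 in SCI and -1.20 in sham. Thbs2, a thrombospondin needed for normal fibrils in mice, had -0.98 in SCI and -0.99 in sham. Dcn and Lum, proteoglycans on fibril surfaces, were not called. Of 15 genes of TGF-beta signaling, the main growth factor route to collagen genes, 6 were called lower (40%) and 3 higher (20%) in both comparisons, with a median of -0.20 in SCI and -0.25 in sham. The receptor gene Tgfbr3 had -0.90 in SCI and -0.997 in sham, the receptor gene Tgfbr1 had -0.83 in SCI and -0.91 in sham, and the ligand gene Tgfb2 had -0.72 in SCI and -0.69 in sham. Tgfb1 was called higher, with 0.57 in SCI and 0.51 in sham, and the target Ccn2 was not called.

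Between SCI and sham edgeR called no gene of these 6 lists. The smallest p of each list belonged to P3h2 (log2 change 0.17), Pxdn (0.26), Mmp8 (0.43), Adgrg6 (0.10), Aspn (-0.46) and Tgfb3 (-0.22).

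**Figure D5:**
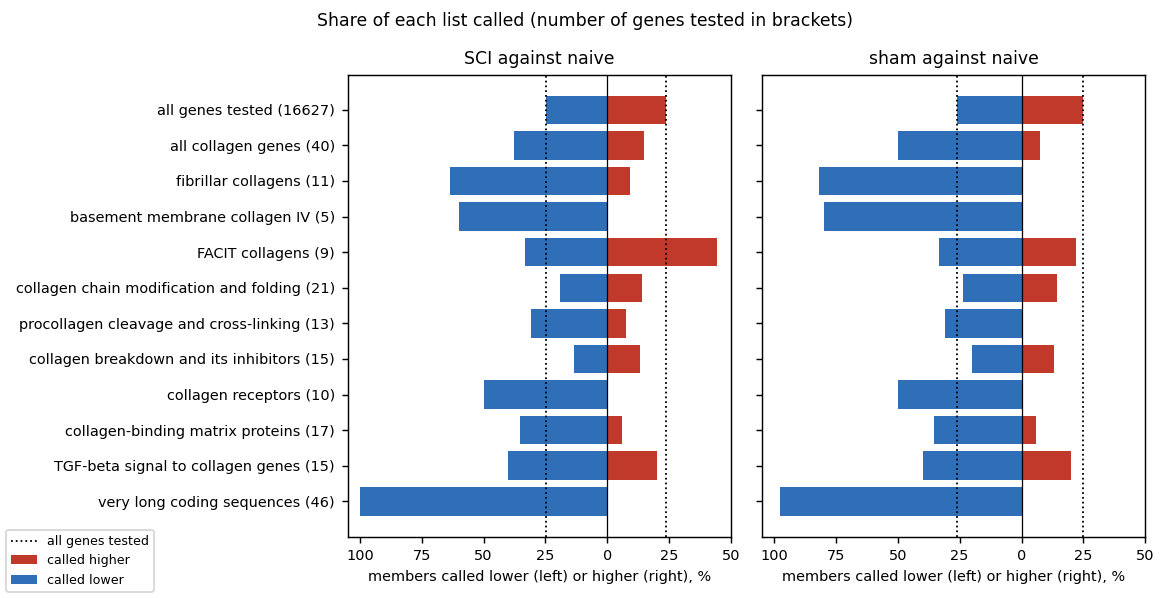
Share of the genes of each list called lower (blue, to the left) or higher (red, to the right) in SCI against naive and in sham against naive, in percent. Dotted lines give the shares over all 16627 genes tested; fibrillar collagens and collagen IV reach past the dotted line on the lower side in both panels, and the genes with very long coding sequences reach furthest.

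Markers of the cells that make collagen were measured beside these results. Of all genes, 24.6% were called lower and 23.9% higher in SCI, and 25.9% lower and 24.7% higher in sham. Of 9 tested fibroblast markers 5 were called lower in SCI (55.6%) and 2 in sham (22.2%, under the share of all genes), and 0 higher. Their median log2 change was -0.41 in SCI and -0.30 in sham. Their summed level ran from 1770.5 to 2151 CPM in SCI, from 1808 to 2897 CPM in sham and from 2599 to 3035 CPM in naive. Pdgfra, a defining fibroblast gene with the smallest p of that list in both comparisons, stood at 42.8 CPM in SCI, 43.0 CPM in sham and 72.4 CPM in naive. The log2 change was positive for 1 of the 9 markers in SCI and 2 in sham. These were Fbln1 (0.21 in SCI and 0.13 in sham) and, in sham, Dpt (0.19), none called. Dcn and Lum were not called in either comparison. Of 10 Schwann cell markers 8 were called lower in SCI and 8 in sham (80% each), with a median of -0.62 in SCI and -0.80 in sham. Their sum ran from 18827 to 22857 CPM in SCI, from 17411 to 21563 CPM in sham and from 29924 to 31688 CPM in naive. Of 5 perineurial markers 2 were called lower in SCI (40%) and 1 in sham (20%, under the share of all genes). The sum of that list ran from 1221 to 1316 CPM in SCI, from 1004 to 1421 CPM in sham and from 1093 to 1252 CPM in naive. Of 9 pericyte and smooth muscle markers 4 were called higher (44.4%) and 2 lower (22.2%) in SCI. In sham, 6 were called higher (66.7%) and 2 lower (22.2%), and the lower shares were under those of all genes in both comparisons. The sums were 304 to 324 CPM in SCI, 281 to 390.04 CPM in sham and 275 to 292 CPM in naive. Endothelial markers, with 2 of 6 called each way in SCI and in sham (33.3% each), summed to 191 to 208 CPM in SCI, 164 to 221 CPM in sham and 179 to 191 CPM in naive, and Cldn5 was at 0 counts in all libraries.

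Satellite glia, sensory neuron and macrophage markers had median log2 changes of 0.04, 0.11 and 0.15 in SCI against naive and of 0.01, 0.21 and 0.28 in sham against naive. Sensory neuron genes were abundant in all libraries, with sums of 28677 to 29076 CPM in SCI, 25539 to 37608 CPM in sham and 25485 to 26652 CPM in naive. The satellite glia sum was 1429.8 to 1485 CPM in SCI, 1270.2 to 1501 CPM in sham and 1605 to 1653 CPM in naive, and the macrophage sum 144 to 153 CPM in SCI, 115 to 186 CPM in sham and 122 to 139.95 CPM in naive. Tissue around the ganglion was measured by other lists. Skeletal muscle markers summed to 61.7 to 97.4 CPM in SCI, 131 to 152 CPM in sham and 61.3 to 99.6 CPM in naive, and 7 of the 9 tested were called higher in sham than in naive (77.8%, median log2 change 0.98), against 0 higher and 1 lower in SCI than in naive. All 9 lay lower in SCI than in sham without overlap (3.11% of all genes did), with a median log2 change of -0.79 and 0 called by edgeR (9 at an unadjusted p under 0.05). Cartilage markers summed to 50.3 to 52.6 CPM in SCI, 55.7 to 60.2 CPM in sham and 54.9 to 63.5 CPM in naive, with Matn1 at 0 or 1 counts in every library. Of the 6 tested cartilage markers 2 were called lower (33.3%) and 1 higher (16.7%) in SCI and in sham each, with a median log2 change of 0.06 in SCI and 0.35 in sham. Acan, the cartilage proteoglycan, was called lower (-0.80 in SCI and -1.12 in sham), as was Hapln1 (-0.53 in SCI and -0.36 in sham), while Comp, a cartilage matrix protein, was called higher (0.39 in SCI and 0.55 in sham). Bone markers summed to 52.9 to 55.0 CPM in SCI, 48.5 to 61.1 CPM in sham and 36.7 to 43.6 CPM in naive. Alpl carried most of that sum, with means of 49.7 CPM in SCI, 48.4 CPM in sham and 35.4 CPM in naive. Of 5 tested bone markers 1 was called higher (Alpl) and 1 lower (Phex, -0.85) in SCI (20% each). In sham, 1 was called higher (Alpl, 20%) and 0 lower. The median log2 change was -0.12 in SCI and -0.11 in sham. The part of any of these cells in the collagen results was not tested.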

How the data were processed

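RNA of dorsal root ganglia was measured in 9 libraries, prepared, per the labels' protocols, with a TruSeq V2 kit that does not mark strand, so that a gene and an overlapping antisense gene share reads. The submitters' processing notes name FastQC, Trimmomatic, TopHat2, HTSeq and also DESeq2, while for tool versions, genome build and gene annotation the entry is not given in the sources used here. What the authors deposited were whole-number counts per gene, not normalized, in 9 columns that were all used; columns left unused numbered 0.

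Groups were compared with the quasi-likelihood test of edgeR (version 4.0.16 in R 4.3.3) with TMM scaling and edgeR's default filter on low counts. All 9 libraries entered 1 fit with a mean for each group, and Benjamini-Hochberg adjustment over all 16627 genes tested, with calls under 0.05. It was checked on simulated counts, and the outcome of that check is not given here. CPM used TMM-scaled library sizes, except in the rule for members, which used library totals. The members, lists and tests were chosen with earlier results of these data known. Genes with values by library were, in each comparison, up to 6 called higher and 6 lower with the smallest p, or the 3 smallest where under 3 passed, the 5 most abundant, and partner chains; others were named after their values were seen. Of 98 pathway and 91 marker symbols, 91 and 82 were tested, some matched through synonyms in RefSeq's GRCr8 table, as was Hspg2. Promoters came from that table. Alternatives changed the scaling (RLE, upper quartile), the filter (none, or 1 CPM in every library), the tool (DESeq2 version 1.42.0, limma-voom with limma version 3.58.1) or the libraries (the compared groups alone, or all but 1), or added a block for the replicate number, or took calls under an adjusted p of 0.1. Levels per coding length and a coding-length offset were not run, for want of lengths. Rankings, shares and ratios across genes are thus in counts or CPM, not corrected for length. The 3 ratios Col9a3/Col9a2, Col11a1/Col11a2 and Col1a1/Col3a1 and the list of very long coding sequences were added after the data were seen.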

Additional observations from a re-analysis of the deposited data

How the results depend on the processing

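Between SCI and sham the count of collagen genes called was 0 in either direction under every alternative run. Against naive, 15 were called lower and 6 higher in SCI, and 20 lower and 3 higher in sham. The count higher in SCI was 10 when only the groups compared were fitted, and the count higher in sham was 5 without a low-count filter; the cause was not tested. Leaving out 1 library at a time gave 13 to 17 lower and 6 to 8 higher in SCI, and 16 to 21 lower and 2 to 6 higher in sham, the last being 6 without sham 1. All other alternatives kept the 4 counts against naive within 1.5 times. Of the log2 changes of single called genes, 349 values in SCI and 371 in sham kept their call and direction under the alternatives, 7 in SCI and 19 in sham lost the call, and none changed sign. Replicate numbers are shared across groups, but deviations of same-numbered libraries from their group means correlated between -0.0946 and 0.124, so the numbers were not taken as pairs; with the replicate number as a block the counts were 15 lower and 6 higher in SCI, 20 lower and 3 higher in sham and 0 between SCI and sham. With that block Col11a2 lost its call in sham (edgeR adjusted p = 0.0628). The planned coding-length offset was not run. RLE and upper-quartile scaling moved the median of all genes by at most 0.02 on the log2 scale. Low counts limit Col1a2, Col17a1, Col19a1, Col20a1, Col4a6, Col7a1, Col10a1, Col25a1 and Col26a1, which held 4 to 78 counts per library. Some libraries were also low for Col9a1 (38 to 269 counts), and with it the ratio of Col9a1 to Col9a2, for Col22a1 (52 to 125) and for Col13a1 (73 to 166).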
